A study of Mus musculus with 3 samples.

Results

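The genes of the urea cycle and of arginine synthesis were described here in 3 segments of the embryonic mouse gut: Cps1, Otc, Nags, Ass1, Asl, Arg1, Arg2, Oat, Slc25a15 and Aldh18a1. Each was found once by its gene name, which gave 10 of the 33762 Ensembl gene features in the deposited table. The 10 genes were chosen by pathway with earlier values from these same libraries in view, above all the counts that placed Cps1 far higher in the ileum than in the other segments. Their levels and folds are therefore a description, and no p-value is attached to them.

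RNA was taken from wild-type Bl6/C57 mouse embryos at E13.5 (a stage in days of embryonic development), with no transgene or treatment named in the labels. The ileum sample was the last of 3 equal portions of the small intestine, and the other samples were the caecum and the colon, with 1 sample of each segment. PolyA-selected libraries were read as 100 bp pairs. Whether a sample held tissue from 1 embryo or several is not given in the sources used here. Since each segment is a single library, a difference below compares libraries, and embryos, dissections and segments cannot be told apart.

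The libraries held 50079617 counts in the ileum, 64439701 in the caecum and 50772855 in the colon. Of 10 genes listed to check the labels, Gata4 and Hoxa13 are given as examples that followed them. Gata4, a factor of the small intestine, had 702 counts in the ileum, 4 in the caecum and 58 in the colon. Hoxa13, a factor of the hindgut, had 0, 81 and 2310 counts in that order. All values below are given in the order ileum, caecum, colon.

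The urea cycle disposes of ammonia and makes arginine. In mitochondria, N-acetylglutamate made by Nags switches on Cps1, Cps1 makes carbamoyl phosphate, and Otc joins it to ornithine to give citrulline, which leaves through the exchanger Slc25a15. In the cytosol Ass1 and Asl turn citrulline into arginine, and arginase splits arginine into urea and ornithine. Hepatocytes run the whole cycle, whereas enterocytes of the small intestine are known for making citrulline and, around birth, arginine from glutamine and proline, with Aldh18a1 and Oat supplying ornithine.

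The mitochondrial enzymes that make citrulline were the members highest in the ileum relative to the other libraries. Cps1, the carbamoyl phosphate synthetase (ENSMUSG00000025991, mm9 chr1:67169600-67277833), had 1834, 80 and 36 counts. In RPKM, which divides a count by gene length and library size, Cps1 stood at 6.59, 0.223 and 0.126. The ileum library was far above the others, while the caecum and colon values were low and near each other. On counts scaled between libraries, the ileum level of Cps1 was 29.8-fold that of the caecum (95% interval 23.8 to 37.8) and 52.4-fold that of the colon (37.7 to 75.1). These intervals, and all that follow, cover counting error only and not differences between embryos. The caecum exceeded the colon by 1.76-fold (1.17 to 2.68).

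Otc, the ornithine transcarbamylase on the X chromosome (ENSMUSG00000031173, mm9 chrX:9829431-9898150), had 164, 18 and 9 counts, or 0.77, 0.064 and 0.0418 RPKM. Its ileum level was 11.9-fold that of the caecum (7.27 to 20.5) and 18.7-fold that of the colon (9.64 to 41.7). Caecum and colon did not differ beyond counting error, with an interval of 0.675 to 4.0 around a ratio of 1.58. Thus Otc, like Cps1, was far higher in the ileum library than in the others, from much lower counts.

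Nags, the synthase of the Cps1 activator (ENSMUSG00000048217, mm9 chr11:102006827-102010791), had 25 counts in the ileum, 1 in the caecum and 2 in the colon. Its RPKM was 0.176, 0.00547 and 0.0173. The ratio of ileum to caecum was 32.5 with an interval of 5.32 to 1335, and that of ileum to colon was 12.9 with an interval of 3.21 to 112. Both intervals lie above 2-fold, but the size of the fold is poorly fixed at 1 and 2 counts, and caecum and colon could not be ordered. In bulk tissue of this kind, fewer cells of a type and less RNA per cell cannot be told apart.

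**Figure D1:**
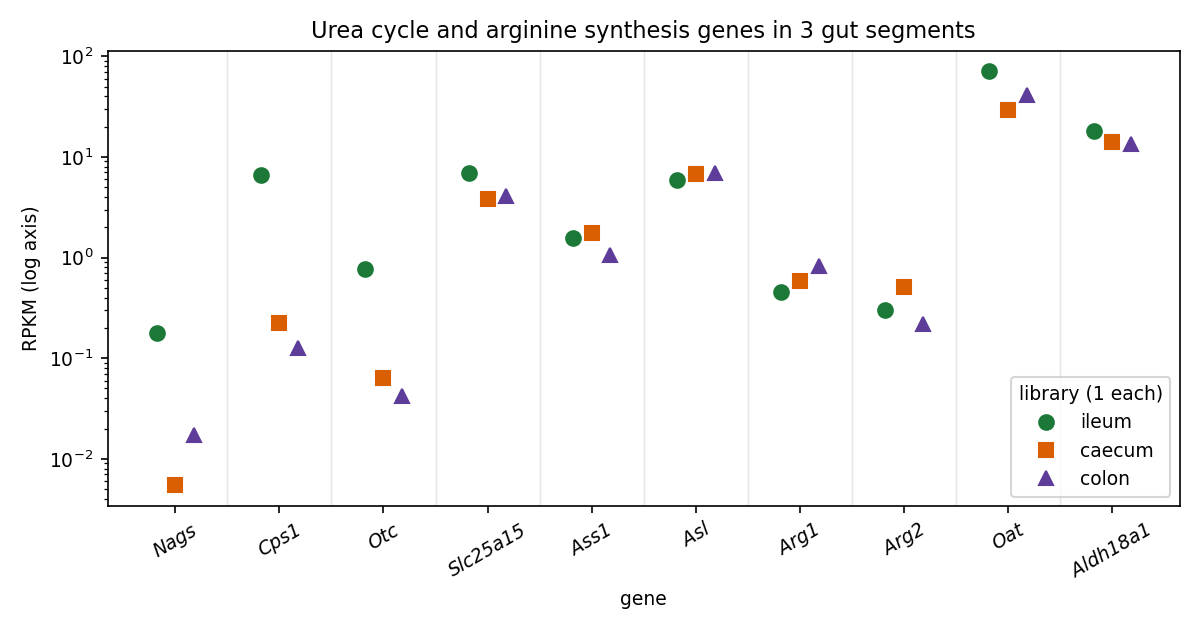
Level of each of the 10 genes in the ileum, caecum and colon libraries, as RPKM on a log axis, with 1 point per library. Cps1 spans from 6.59 RPKM in the ileum to 0.126 in the colon, whereas Asl stays between 5.84 and 6.95.

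Start sites were compared for the members with a RefSeq promoter entry, which was the case for 6 of the 10; Cps1, Asl, Arg1 and Arg2 had none. The windows below run from 250 bases before to 50 bases after the annotated start on GRCm38.p6. They are shown for Otc and Nags, which were higher in the ileum library than in the others. They are also shown for Ass1, the next enzyme of the path, which lacked that pattern. Capitals mark matches to the motifs searched, on either strand.
Otc (chrX:10252055-10252354, plus strand): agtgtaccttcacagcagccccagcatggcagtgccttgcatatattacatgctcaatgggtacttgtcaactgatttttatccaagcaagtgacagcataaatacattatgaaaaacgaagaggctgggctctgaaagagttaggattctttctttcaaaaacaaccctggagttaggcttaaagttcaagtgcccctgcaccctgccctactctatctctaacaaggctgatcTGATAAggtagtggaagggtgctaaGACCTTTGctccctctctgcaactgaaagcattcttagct
Nags (chr11:102145263-102145562, plus strand): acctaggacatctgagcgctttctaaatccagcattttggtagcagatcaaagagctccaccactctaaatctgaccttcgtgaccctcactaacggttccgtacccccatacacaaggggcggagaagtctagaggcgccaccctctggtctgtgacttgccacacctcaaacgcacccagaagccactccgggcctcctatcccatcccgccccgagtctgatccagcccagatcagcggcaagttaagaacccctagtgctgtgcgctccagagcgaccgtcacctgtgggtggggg
Ass1 (chr2:31470020-31470319, plus strand): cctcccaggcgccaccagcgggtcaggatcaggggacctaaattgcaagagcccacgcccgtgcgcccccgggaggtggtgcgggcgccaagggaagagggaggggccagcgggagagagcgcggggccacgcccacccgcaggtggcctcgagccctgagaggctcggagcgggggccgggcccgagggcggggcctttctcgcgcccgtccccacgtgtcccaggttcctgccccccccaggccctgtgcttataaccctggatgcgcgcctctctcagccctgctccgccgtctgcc

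The Otc window was poor in G and C, at 44.3% with 1 CG dinucleotide, against medians of 52.7% and 7 over 32851 RefSeq promoters. Nags had 57.7% and 14 CG, and Ass1 had 74% and 27 CG. The windows of Oat, with 22 CG, Aldh18a1, with 23 CG, and Slc25a15, with 15 CG in one start window and 51 in the other, were also richer in CG than the median. In the Otc window, TGATAA, a form of the GATA factor motif, begins 15 bases before the start, and CAAAGGTC, a form of the HNF4 motif, lies on the minus strand with its leftmost base at position 11 of the transcript, printed above as GACCTTTG. These forms were added after the sequences had been seen, do not overlap, and occur in 9.05% and 1.17% of all promoters. Neither they nor the other forms searched were found in the other members' windows. For the factor C/EBP the letters searched were TTGCNNAA, which 10.8% of all promoters hold. For HNF4 a second spelling, CAAAGTCC, is held by 1.42%. Forkhead factors were searched by TGTTTNC, held by 20.5% of promoters, and HNF1 by one side of its paired site, GTTAAT, held by 7.1%. A second GATA spelling, AGATAA, is held by 11.2%, the caudal factor letters TTTATNG by 10.9%, and the core promoter element TATAAA by 13.6%. None of these was in the Otc window either. A match is a run of letters and not a measured binding site.

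Slc25a15, the mitochondrial exchanger of ornithine and citrulline (mm9 chr8:23486026-23509093), was well above 20 counts in each library. It had 1184, 846 and 716 counts, or 6.85, 3.8 and 4.08 RPKM. The ileum exceeded the caecum by 1.82-fold (1.67 to 1.99) and the colon by 1.7-fold (1.55 to 1.87), and caecum and colon did not differ beyond counting error (ratio 0.935, 0.845 to 1.03). The carrier was thus present in the libraries where Cps1 and Otc were near their lowest.

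The cytosolic enzymes that turn citrulline into arginine were not set apart in the ileum. Ass1, argininosuccinate synthase (mm9 chr2:31325727-31376192), had 180, 260 and 124 counts, or 1.56, 1.75 and 1.05 RPKM. Its ileum-to-caecum ratio was 0.9 (0.74 to 1.09). Both of these segments were above the colon, by 1.49-fold for the ileum (1.18 to 1.89) and 1.66-fold for the caecum (1.33 to 2.07).

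Asl, argininosuccinate lyase (mm9 chr5:130487128-130501002), had 1334, 1998 and 1610 counts, or 5.84, 6.79 and 6.95 RPKM. Here the ileum was the lowest library. The caecum exceeded it by 1.15-fold (1.07 to 1.24), and so did the colon, by 1.17-fold (1.09 to 1.26); the ratio of caecum to colon was 0.982 (0.919 to 1.05).

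The arginases were scarce in every library. Arg1, the cytosolic arginase of liver (mm9 chr10:24635014-24647276), had 34, 55 and 62 counts, or 0.453, 0.578 and 0.827 RPKM. The colon exceeded the ileum by 1.77-fold (1.15 to 2.78), and the caecum did not differ from either neighbour beyond counting error (0.804, 0.508 to 1.26, for ileum over caecum; 0.702, 0.479 to 1.03, for caecum over colon). Arg2, the mitochondrial arginase (mm9 chr12:80231764-80257288), had 22, 46 and 16 counts, or 0.301, 0.505 and 0.221 RPKM. It was highest in the caecum, 2.27-fold above the colon (1.26 to 4.3) and 1.61-fold above the ileum (0.948 to 2.81). That first fold rests on few counts: the pair of deposited colon columns held 22 and 10 counts, and the caecum-to-colon ratio was 1.55 with the first columns alone and 3.96 with the second. Ileum and colon could not be ordered, at a ratio of 1.41 (0.71 to 2.88). Arg2 also overlaps Vti1b on the opposite strand, a gene with 3046, 4065 and 3198 counts, and whether the counting used strand is not given in the sources used here.

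The enzymes that link ornithine to glutamate and proline were the most abundant members. Oat, ornithine aminotransferase (mm9 chr7:139749158-139768081), had 7616, 4048 and 4467 counts, or 70.6, 29.1 and 40.8 RPKM. Its level in the ileum was 2.45-fold that in the caecum (2.36 to 2.54) and 1.75-fold that in the colon (1.69 to 1.82), and the colon exceeded the caecum by 1.39-fold (1.34 to 1.46). Oat was therefore lowest in the caecum, whereas Cps1 was lowest in the colon. The gene lies inside the long span given for Fgfr2 on the same strand, which had 13071, 15616 and 14522 counts. On scaled counts Fgfr2 was lowest in the caecum, at ratios of 1.09 for ileum over caecum and 1.18 for colon over caecum.

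Aldh18a1, the synthase of the pyrroline carboxylate from which ornithine and proline are made (mm9 chr19:40624747-40662953), had 3623, 3592 and 2711 counts, or 18.2, 14 and 13.4 RPKM. The ileum exceeded the caecum by 1.31-fold (1.25 to 1.37) and the colon by 1.38-fold (1.31 to 1.45). Caecum over colon was 1.05 (0.997 to 1.1). Aldh18a1 overlaps Gm15801 on the same strand, a predicted gene with 1392, 1616 and 1122 counts.

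**Figure D2:**
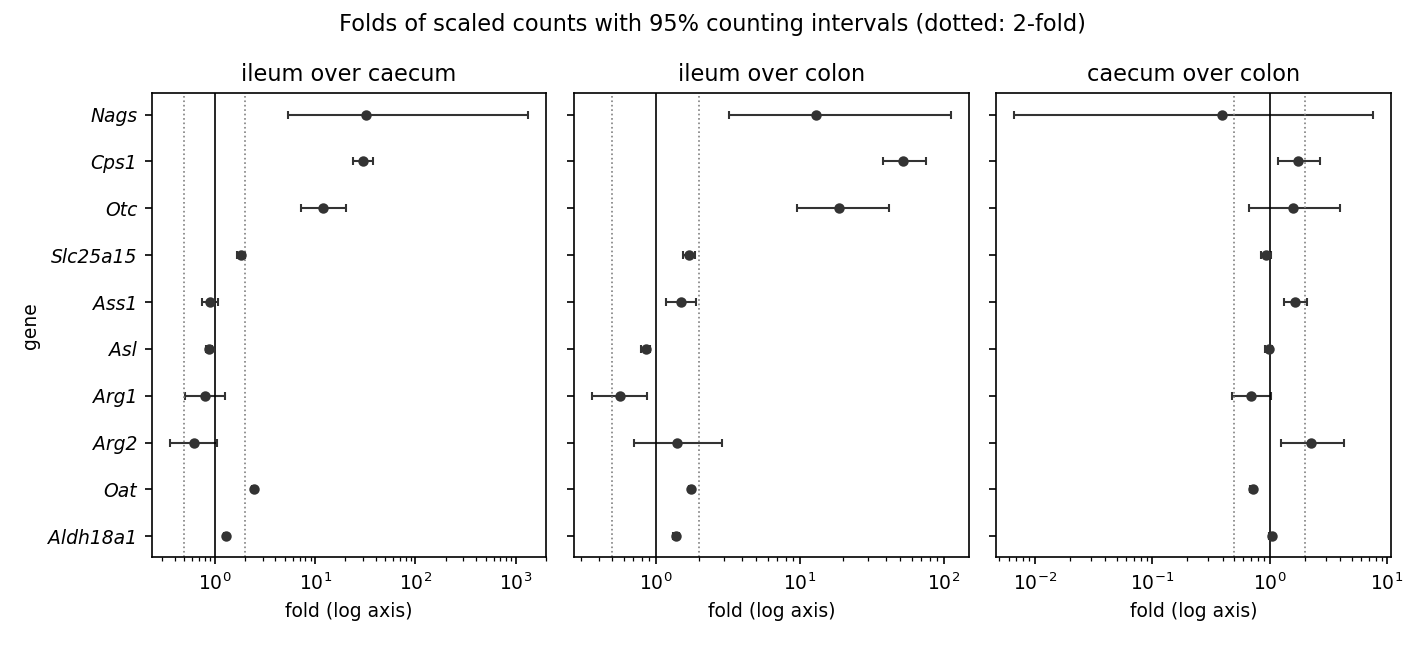
Ratio of scaled counts for each gene between pairs of libraries on log axes, with bars for the 95% counting interval and dotted lines at 2-fold. Nags, Cps1 and Otc lie wholly beyond 2-fold for ileum over caecum and ileum over colon, and none of the 3 does for caecum over colon.

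Counted over the pathway at 2-fold, with a gene entering where the higher library had at least 20 counts, 4 of 10 members (Cps1, Otc, Nags and Oat) had less in the caecum than the ileum and 0 had more. Over all 17827 features in that comparison 2.52% were lower and 4.59% higher in the caecum. Between colon and ileum 3 of 10 members were lower in the colon (Cps1, Otc and Nags) and 0 were higher, where 4.29% of 17579 features were lower and 4.04% higher. Between caecum and colon 8 members entered and 1, Arg2, was higher in the caecum, with 0 lower, against 5.11% higher and 2.74% lower of 17900 features; Otc and Nags fell under the count minimum there. The comparisons with the ileum share the ileum library, and nothing is read from these shares because the members were chosen with the ileum values known.

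The median log2 ratio of the members was -0.63 for caecum over ileum and -0.67 for colon over ileum, where the medians over all features were 0.01 and -0.00. For caecum over colon it was 0.02 for the 8 members and 0.01 for all features. Ordered from the lowest ratio of caecum to ileum, Nags took place 4, Cps1 place 5 and Otc place 17 among 17827 features, while Oat took place 284. For colon over ileum Cps1 took place 7, Otc place 36 and Nags place 52 of 17579. The places of Nags rest on 1 count in the caecum and 2 in the colon and are poorly fixed. Cps1, Otc and Nags were among 240 features whose ileum count was at least 2-fold that of both other libraries, which is 1.33% of the 18005 features entered.

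**Figure D3:**
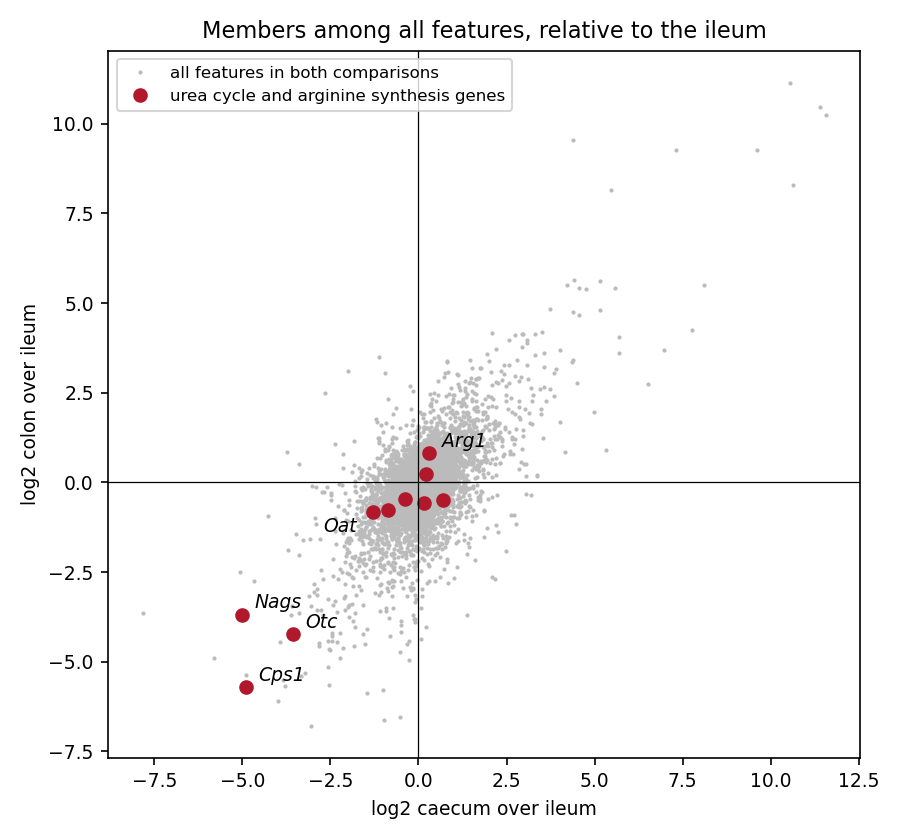
Log2 ratio of scaled counts, caecum over ileum against colon over ileum, for the 17401 features in both comparisons (grey) and the 10 members (red); both axes share the ileum library. Cps1, Otc and Nags lie at the lower left edge, with ileum-to-caecum ratios of 29.8, 11.9 and 32.5, Oat lies at 2.45, and the other 6 members are within 2-fold on both axes.

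Within a library, RPKM allows genes to be compared per length. In the ileum the order from the highest was Oat, Aldh18a1, Slc25a15, Cps1, Asl, Ass1, Otc, Arg1, Arg2 and Nags. Cps1 held place 4 there and place 8 in both the caecum and the colon. The shares that follow are taken over the 18005 features with at least 20 counts in some library, which leaves out the scarcest features. The RPKM of Cps1 exceeded that of 52.7% of them in the ileum, 6.53% in the caecum and 3.64% in the colon. Oat exceeded 94.3% of these features in the ileum, and Nags 6.23%.

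Summed by compartment, Nags, Cps1 and Otc together gave 7.54, 0.293 and 0.185 RPKM, of which Cps1 was the greater part in each library. Ass1 and Asl together gave 7.4, 8.54 and 8 RPKM, and the arginases 0.754, 1.08 and 1.05. Oat and Aldh18a1 together gave 88.8, 43.2 and 54.3 RPKM. The RPKM ratio of Cps1 to Ass1, the enzymes at the entry to each compartment, was 4.23 in the ileum, 0.128 in the caecum and 0.119 in the colon. The ratio of Cps1 to Otc moved less, at 8.57, 3.49 and 3.01, and that of Oat to Cps1 went from 10.7 in the ileum to 130 and 324. Transcripts of Nags, Cps1 and Otc were thus lower outside the ileum library than in it. Within the ileum library Otc and Nags were also low, at 0.77 and 0.176 RPKM. Transcripts of Ass1 and Asl were within 2-fold between libraries, with Ass1 lowest in the colon.

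The wider pathway comprised 5 lists with 46 genes, of which 45 were matched by symbol. Between caecum and ileum 43 could be compared, with 2 higher and 1 lower in the caecum at 2-fold and a median log2 ratio of -0.05. Between colon and ileum 43 were compared, with 2 higher and 1 lower in the colon and a median of -0.02. Between caecum and colon 42 were compared, with 1 higher and 0 lower and a median of 0.06. Among all features 4.59% were higher and 2.52% lower in the caecum than the ileum, and 4.04% higher and 4.29% lower in the colon, so these counts are near those of genes at large.

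Among the 14 enzymes of glutamine, glutamate and proline, Prodh2, a mitochondrial oxidase of hydroxyproline, was the gene apart. It had 115, 16 and 0 counts. Its ileum level was 9.35-fold that of the caecum (5.52 to 16.9) and at least 39.4-fold higher than the colon against a floor of 3 counts there, where the exact interval starts at 31.6. Glud1, glutamate dehydrogenase, had 29.4, 26.9 and 27.2 RPKM, and Glul, glutamine synthetase, had 23.8, 32.3 and 29.3.

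None of the 4 mitochondrial carriers that could be compared was 2-fold apart. Slc25a13, an aspartate and glutamate carrier, had 11.4, 14.1 and 12.4 RPKM, and Slc25a22, a glutamate carrier, 11.9, 11.4 and 10.5. Slc25a2, the other ornithine carrier, was left out at 7, 3 and 8 counts. Of the 8 genes for transport of basic amino acids across the plasma membrane, Slc7a3, with 50, 140 and 60 counts, had a caecum-to-ileum ratio of 2.15 (1.55 to 3.04). Slc7a7, which exports basic amino acids together with Slc3a2, had 143, 346 and 324 counts and a colon-to-ileum ratio of 2.2 (1.8 to 2.7). Slc7a2, an importer of arginine, leaned the other way at 7.28, 4.38 and 3.81 RPKM, an ileum-to-colon ratio of 1.94 (1.83 to 2.05). Slc7a2 was within 2-fold in each pair, and others of the 8 were more abundant.

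Of the 11 genes of polyamine synthesis, which starts from ornithine, 10 could be compared and 0 were 2-fold apart in any pair. Odc1, ornithine decarboxylase, had 51.9, 49.2 and 55.3 RPKM, and its inhibitor Oaz1 had 114, 119 and 117. Of the 7 genes that use arginine for nitric oxide or creatine, or break down methylarginine, Nos1, the neuronal nitric oxide synthase, was apart with 148, 1202 and 356 counts. Its caecum level was 6.24-fold that of the ileum (5.26 to 7.46) and 2.67-fold that of the colon (2.37 to 3.01), so that its highest library was not that of Cps1. Markers of enteric nerves, where Nos1 is known to be expressed, summed to 189, 192 and 106 RPKM.

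**Figure D4:**
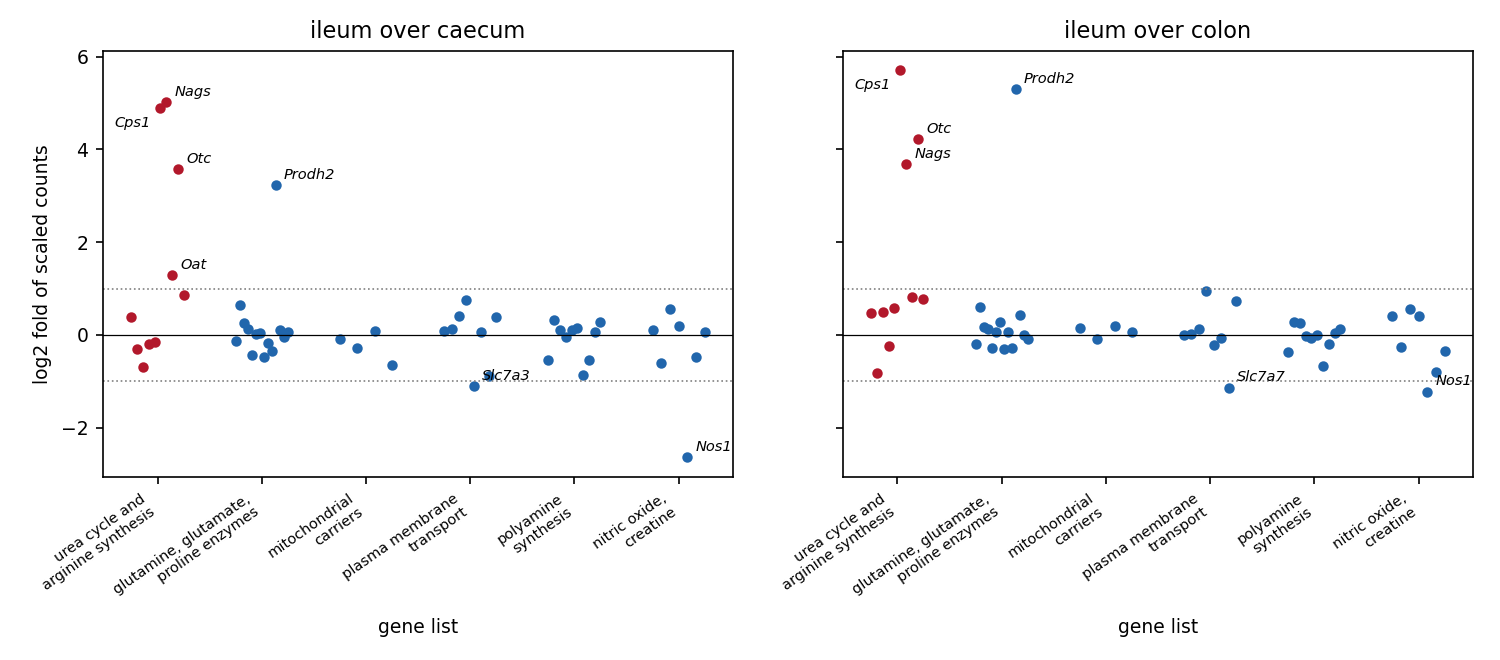
Log2 ratio of scaled counts for the 10 members (red) and the 5 lists of the wider pathway (blue), 1 point per gene, for ileum over caecum and ileum over colon; dotted lines mark 2-fold. Prodh2 is the blue point far above the line, drawn for the colon at 39.4-fold, against the floor of 3 counts, and Nos1 is the lowest.

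Of 9 factors known to control urea cycle genes in liver or intestine, 7 were within 2-fold between caecum and ileum and 8 in each of the other pairs. The exceptions were Cebpa and Foxa2. Cebpa, with 349, 210 and 267 counts, exceeded its caecum level in the ileum by 2.16-fold (1.82 to 2.58) and its colon level by 1.34-fold (1.14 to 1.58). Foxa2, with 68, 254 and 412 counts, was lowest in the ileum, and the colon exceeded it by 5.89-fold (4.55 to 7.73). Hnf4a, a factor of gut epithelium and liver, had 16.1, 9.81 and 17.6 RPKM, and the glucocorticoid receptor gene Nr3c1 had 15.3, 9.45 and 12.5. Both were within 2-fold between libraries and lowest in the caecum, as Oat was. Whether any of these factors acts on the members was not tested.

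Features with the most similar pair of ratios to the ileum were listed for the 3 members with the widest span. This likeness is a distance in 2 log2 ratios from 3 libraries among 12288 eligible features (12289 for Nags), so some near matches are to be had for almost any gene. Nearest to Cps1 were the complement regulator gene Cfi (320, 14 and 8 counts; distance 0.35), the homeobox gene Hoxc8 (2778, 226 and 42; 0.97), Cyp1b1 (1.59) and Slc4a10 (1.60). Nearest to Otc were Slc4a10 (2324, 199 and 110 counts; 0.42), Tm4sf20 (0.78), Fap (0.79) and Hopx (0.80). Nearest to Nags were Fabp2 (104, 4 and 19 counts; 1.19), Slc4a10 (1.33), Tm4sf20 (1.44) and Otc itself (1.55). Nags itself had 25, 1 and 2 counts, below the minimum set for the other features, so its distances are poorly fixed. Fabp2 encodes a fatty acid binding protein of enterocytes and Tm4sf20 a membrane protein of the same cells, whereas Hoxc8 and Fap are known from mesenchyme.

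Among the 20 features flanking the members on their chromosomes, 2 were 2-fold apart in each pair of libraries. Hmcn2, beside Ass1, was one of them in every pair, with 1200, 570 and 73 counts and ratios of 2.74 for ileum over caecum and 16.9 for ileum over colon. Lancl1 beside Cps1 had a ratio of ileum to caecum of 0.975, and Erbb4 on the other side had 12, 78 and 18 counts. Rpgr beside Otc was at 0.979, and Gm11585 and Tmem101 beside Nags were at 1.02 and 0.833. Tspan7, also beside Otc, had an ileum-to-colon ratio of 2.14. Over all features, 1268 of 17827 were 2-fold apart between caecum and ileum. Between caecum and colon 1404 of 17900 were, and between colon and ileum 1465 of 17579.

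Marker lists were read beside these values, as summed RPKM. The 9 markers of epithelium gave 255, 254 and 296. Of these 9, 0 were 2-fold apart between caecum and ileum, and 1, Krt19, was higher in the colon than the ileum. Single markers leaned both ways. Ileum over colon was 1.8 for Cdx2 and 1.4 for Epcam, but 0.462 for Krt19 and 0.588 for Krt8. Taken over the summed epithelium markers, the RPKM ratio of ileum to caecum was 29.4 for Cps1, 12 for Otc and 32 for Nags. That of ileum to colon was 60.8, 21.4 and 11.8. For Nags the RPKM ratio of ileum to colon without the markers was 10.1. The 12.9 given above came from scaled counts, where colon columns of 3 and 2 counts were averaged and rounded to 2. The part of epithelial content in the members' differences was not tested.

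Enterocyte markers were less even. The 10 listed gave 25.6, 18.8 and 5.34 RPKM. In the colon 4 of the 6 that could be compared were 2-fold lower than in the ileum and 0 were higher; in the caecum 2 were lower and 1, Apoa1, was higher. Apob, with 3414, 3062 and 38 counts, and Muc13, with 1518, 1010 and 16, were far lower in the colon than in the caecum. Their ileum-to-caecum ratios were 1.45 (1.38 to 1.52) and 1.95 (1.8 to 2.12), below those of Cps1, Otc and Nags. Apoa1 had 164, 624 and 152 counts and Mttp 316, 474 and 358. Of the markers compared, Fabp2 and Tm4sf20 were those at least 2-fold lower in both caecum and colon than in the ileum. The ileum level of Fabp2 was 33.8-fold that of the caecum (12.8 to 126) and 5.63-fold that of the colon (3.43 to 9.73), and that of Tm4sf20 12.1-fold (8.46 to 18) and 10.9-fold (7.46 to 16.6). Taken over the enterocyte sum, the ileum-to-caecum ratio was 21.6 for Cps1, 8.81 for Otc and 23.6 for Nags, and the ileum-to-colon ratio was 10.9, 3.84 and 2.12. Oat went from 1.77 for the caecum to 0.361 for the colon on that basis. The part of the enterocyte markers in the members' differences was not tested beyond these ratios.

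The 12 hepatocyte markers gave 16.7, 21.9 and 12.5 RPKM, and 3, 4 and 4 of them reached 20 counts. Serpina1a made up most of each sum, with 15.3, 20.3 and 11.1 RPKM. Fgb had 62, 87 and 36 counts, Tdo2 had 50, 37 and 44, and Alb, the albumin gene, had 6, 8 and 36. Ahsg had 0 counts in all 3 libraries and Tat had 0, 1 and 0. The sum was highest in the caecum, where Cps1 had 80 counts, and the part of liver transcripts in the members' levels was not tested. Kidney markers gave 0.137, 0.156 and 0.0474 RPKM and pancreas markers 0.822, 1.11 and 1.14. Markers of leukocytes, cells that can express arginase, gave 22.1, 25.5 and 25.6 RPKM. Smooth muscle markers gave 1093, 422 and 577 RPKM with the ileum highest, as for Cps1, Nags and Oat, and 5 of the 7 were 2-fold lower in the caecum and 4 in the colon. Their part in the members' levels was not tested.

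**Figure D5:**
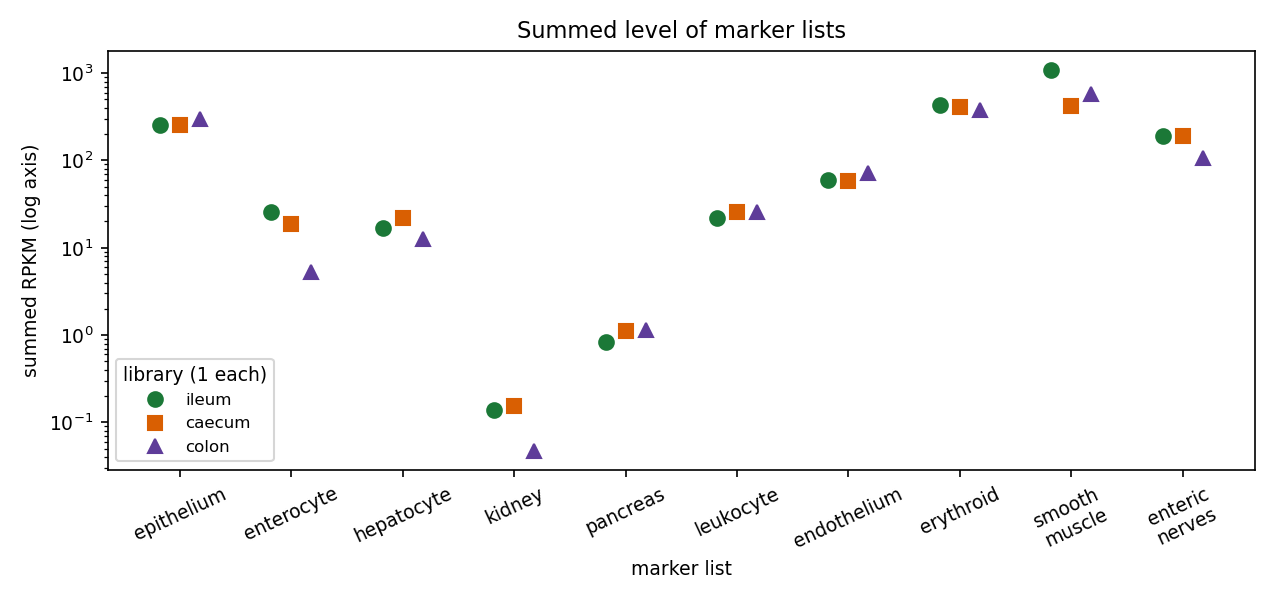
Summed RPKM of each marker list in the 3 libraries, on a log axis. The epithelium sums lie between 254 and 296, the enterocyte sum drops from 25.6 in the ileum to 5.34 in the colon, and the smooth muscle sum is highest in the ileum at 1093.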

How the data were processed

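RNA from 1 sample each of ileum, caecum and colon was compared. The deposited table gives expected counts and RPKM values for 33762 Ensembl features, per the file headers. Per the labels, RNA was polyA-selected; Bowtie 0.12.7, DESeq and mm9 are named in the submitters' processing notes, without roles. RPKM values were made by the authors and used as deposited. Each segment has 2 columns of each kind, named as replicates. They differed by less than counting noise (0.461, 0.458 and 0.454 of the counting variance in ileum, caecum and colon), which is less than independent runs would. Both columns ended in the same fraction for 100% of features in each segment. The columns were therefore read as values of 1 library that cannot be taken as independent. They were averaged, and counts were rounded. Some deposited counts end in 0.5, as in 6 of the 10 members, for a reason not given in the sources used here. Every value column was mapped to a sample.

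Counts were scaled by TMM (edgeR 4.0.16, R 4.3.3). A fold is the ratio of scaled counts with an exact Clopper-Pearson 95% interval of the conditional binomial, which covers counting error only. A feature entered when its higher library had 20 counts or more and was called at 2-fold; 0 counts were replaced by a floor of 3. With 1 sample per segment no test across samples was possible. The calculation was tested on simulated data. Alternatives were DESeq2 1.42.0 size factors, total counts, other minimums, each column alone and RPKM ratios.

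The members and lists were chosen with earlier results of these data known. All members were named. Of other lists, up to 5 genes that were 2-fold apart or most abundant were named. Slc7a2 and Odc1 were named outside that rule. Of genes of like pattern, the 4 nearest with at least 100 counts in the highest library and 3 in each were named. Promoter sequences are from RefSeq on GRCm38.p6 and motifs were searched on both strands. The values of 1 gene of the wider lists are not reported here.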

Additional observations from a re-analysis of the deposited data

How the results depend on the processing

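Each segment is 1 library, so no value below measures biological spread, and counts under about 20 limit Nags, Arg2 and the caecum and colon levels of Otc. No paired analysis was possible because each segment has 1 sample.

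The features at least 2-fold apart numbered 1268 between caecum and ileum, 1404 between caecum and colon and 1465 between colon and ileum. With no count minimum they numbered 3450, 3721 and 3761, with a minimum of 100 counts 707, 804 and 810, and with the whole interval beyond 2-fold 630, 741 and 769. Members 2-fold apart between caecum and colon numbered 1 (Arg2) as reported, 2 (with Nags) with no minimum, and 0 with a minimum of 100, with the whole interval beyond 2-fold, or with the first column only. With a minimum of 100 counts, Nags no longer entered, which left 3 members apart between caecum and ileum and 2 between colon and ileum.

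Under DESeq2 size factors, total counts, RPKM ratios, the first column and the second column, 30 of 30 member folds each stayed within the reported interval; with the first column 1, Arg2 colon over ileum at 1.12, fell on the other side of 1. The columns cannot be taken as independent, so the use of each alone is not a repeat. The marker-based alternatives were chosen after seeing the data. Over the summed epithelium markers 22 folds stayed within it, 8 moved and 2 fell on the other side of 1. Over the summed enterocyte markers 5 of 30 stayed within it and 11 fell on the other side of 1, among them 1 that had been 2-fold apart, Arg2 caecum over colon, which became 0.652.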
